A study of Canis lupus familiaris with 33 samples.

Results

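The genes of the cytosolic ribosomal proteins were read on Affymetrix Canine Genome 2.0 arrays of lymph nodes from dogs with diffuse large B-cell lymphoma (DLBCL) and from healthy dogs. Members were the genes whose symbol starts with RPL or RPS followed by a digit or A, taken from probesets with 1 gene symbol and leaving out the S6 kinases (RPS6K). This gave 56 of the 15115 named genes, on 117 of the 43035 probesets, and a gene with several probesets is represented by the one whose mean over the 33 arrays was highest. The arrays comprised 16 of treatment naïve DLBCL (ages 2.7 to 13.3 years), 7 of DLBCL relapsed after chemotherapy (6.4 to 11.8 years, 13 to 672 days since treatment) and 10 of healthy nodes from dogs put down for other diseases, whose age was not stated. The tumours are whole biopsies of spontaneous disease in dogs of several breeds. Arrays of the same dog were averaged, which left 22 DLBCL dogs and 7 healthy dogs, healthy dog 1 being the mean of 4 arrays and DLBCL samples 11 (naïve) and 12 (relapsed) coming from 1 dog. Values are log2 expression after RMA, so that a difference of 1 is a doubling.

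The ribosome is built from a large and a small subunit, each an RNA core clad in proteins that are named RPL and RPS after the subunit. Their mRNAs are among the most abundant of any cell, carry a 5′ terminal oligopyrimidine (TOP) motif and are translated under the control of mTOR, which couples ribosome production to growth. Several ribosomal proteins have further roles: RPL5 and RPL11 bind MDM2 and so stabilise p53, and RPL22, RPL5, RPL10 and RPS15 are mutated in lymphoid tumours.

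Of 74 standard ribosomal protein genes of both subunits, 48 were among the members, 28 of the large and 20 of the small subunit. A further 7 members were paralogs (RPL3L, RPL7L1, RPL10L, RPL22L1, RPL26L1, RPL36AL and RPS27L). The last, RPS19BP1, carries the name of RPS19, whose product it binds, and is not a ribosomal protein. RPL11 was not among the members, and the stalk proteins, FAU and RACK1 lie outside the naming rule and are given as a separate list.

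The members filled the top of the measuring range. Their median level was 14.57, where the highest value of any probeset on any array was 15.49, and 41 of 56 had a mean of 14 or more, a level that 214 of 43035 probesets reached. Member probesets made up 35 of the 100 brightest probesets of the array. Near this ceiling the spread was small. The median SD over the 22 DLBCL dogs was 0.053 for the 41 members at 14 or more, and 0.077 for all 214 probesets in that range. It was 0.345 for the probesets with a mean of 6 to 10. The 5 members of highest mean, RPL19, RPS27, RPS29, RPL9 and RPS27A, lay at 15.03 to 15.12, and their DLBCL and healthy means differed by −0.02 to 0.05. How far the ceiling held these differences down was not tested.

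At the other end, RPL37A had a mean of 3.32, within the range of the 17 tag controls (2.79 to 4.56), so that its probeset was near background. RPL10L, a retrocopy of RPL10 known from testis, lay at 5.64, and RPL3L, the paralog of RPL3 known from striated muscle, at 6.27. The other members under 14 ranged upwards from 9.48 (RPL22). A probeset's level depends on its probes as well as on its mRNA, so these levels are not an order of abundance.

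Of the B-cell markers of the tumour, CD79A was at 10.88 to 13.32 in DLBCL dogs (median 13.12) and 11.55 to 12.74 in healthy dogs. MS4A1 was at 8.51 to 13.86 in DLBCL (median 13.11) and 11.65 to 12.65 in healthy dogs. CD79B was at 8.04 to 13.08 (median 12.43) and 10.92 to 12.06, and BLK at 5.79 to 8.75 (median 8.13) and 6.40 to 7.31. For each of them the lowest DLBCL dog lay under all healthy dogs. The same held for PAX5, at 5.66 to 6.35 in DLBCL (median 6.03) and 5.72 to 6.23 in healthy dogs. Its DLBCL median lay within the healthy range, and its values lay under the array medians (6.85 to 6.97). The mean of 9 B-cell markers was 7.96 in DLBCL sample 5, under all healthy dogs (9.50 to 10.39) and under every other DLBCL sample. T-cell markers were at 7.21 to 9.52 in naïve, 7.94 to 9.12 in relapsed and 9.92 to 10.97 in healthy nodes. DLBCL samples 5 and 18 stood apart in several members and are named where they do. RNA integrity numbers (RIN) were 8.9 to 10 in DLBCL, 8.8 to 9.4 on the arrays of healthy dog 1 and 5.8 to 7.7 in healthy dogs 2 to 7. Fewer cells of a type and less RNA per cell cannot be told apart in bulk tissue.

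In DLBCL against healthy nodes, the members called by the test were all higher in DLBCL, and most of the others were read near the ceiling of the array. Of the 56 members, 12 rose and 0 fell with an adjusted p below 0.05 (limma, Benjamini-Hochberg over 43035 probesets), or 21.4% and 0%, against 19% of all probesets higher and 13.6% lower. The share that rose was thus near that of all probesets. The median difference of the members was 0.03 and that of all named genes 0.06, and no member changed by more than 2-fold. Without adjustment, 15 of 56 members lay higher and 0 lower with p below 0.05, which 42.0% of all probesets passed in one direction or the other. No member separated all DLBCL from all healthy dogs, where 0.572% of all probesets did so upwards and 1.08% downwards. Of the 41 members at 14 or more, 3 were called (RPS12, RPL4 and RPS26), with a median difference of 0.01. Of the 15 under 14, 9 were called, with a median of 0.24. By subunit, 5 of 28 large and 3 of 20 small subunit genes rose, as did 3 of 7 paralogs and RPS19BP1. Among the other 63 named genes with a mean of 14 or more, 14 rose and 5 fell. Leaving out DLBCL samples 5 and 18 gave 17 members higher and 0 lower. Sample 5 had the lowest mean of the members at 14 or more, and sample 18 the lowest mean of those under 14. The share of all probesets was not computed without these samples, so this count cannot be set against the 19% given above.

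**Figure D1:**
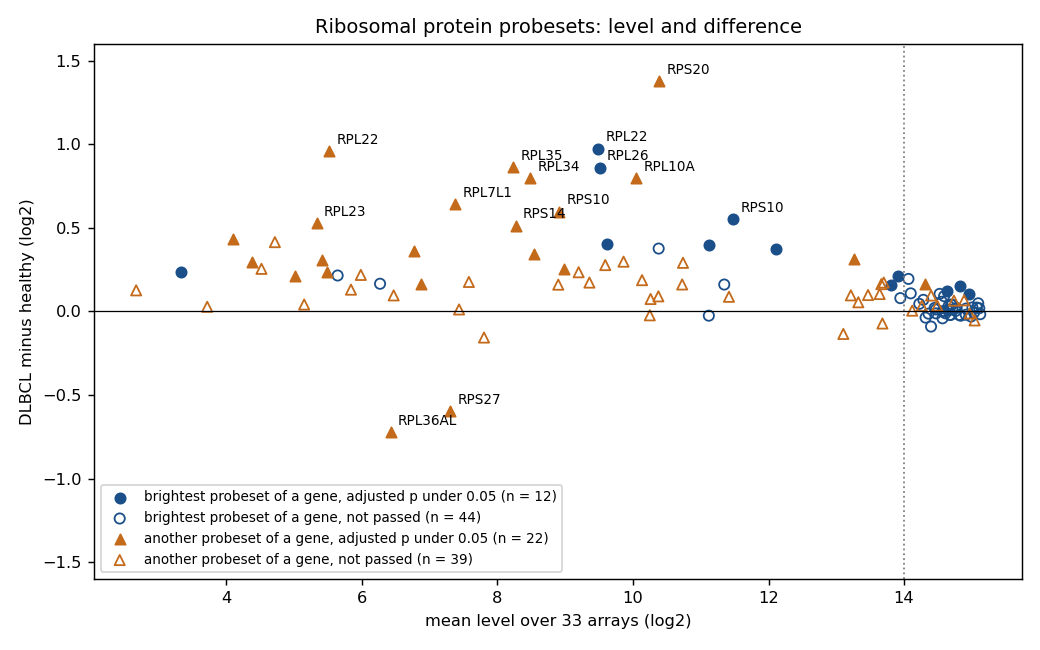
Each point is a probeset of a ribosomal protein gene, with its mean log2 level over 33 arrays on the x axis and the difference of the DLBCL and healthy means (22 and 7 dogs, log2) on the y axis. Circles are the brightest probeset of each of the 56 genes, triangles the other 61 probesets, filled for an adjusted p below 0.05, and the dotted line marks a level of 14. Differences over 0.5 all lie under 14.

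The rise of RPL22 was the largest of the members. RPL22 is a large subunit protein that is not essential for general translation, binds RNAs including its own paralog's, and is deleted in some T-cell lymphomas. Its level was 8.57 to 8.96 in the 7 healthy dogs (median 8.83), 8.79 to 10.73 in naïve DLBCL (median 9.71) and 9.47 to 9.90 in relapsed DLBCL (median 9.67). Of 22 DLBCL dogs, 21 were above all healthy dogs. The exception was DLBCL sample 21. The DLBCL mean was 9.78 ± 0.51 (SD, n = 22) and the healthy mean 8.81 ± 0.15 (SD, n = 7), a difference of 0.97 (SE 0.19, adjusted p = 2.6e-04 by limma) or 1.96-fold. The SD was 0.62 over the naïve and 0.15 over the relapsed samples, a difference in spread that was not tested. A second probeset of RPL22 at a mean of 5.52 differed by 0.96 (SE 0.16, adjusted p = 4.8e-05 by limma).

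A further probeset is listed for RPL22 together with 1 other locus and so was not used for the gene. It lay at 14.58, and its DLBCL and healthy means differed by −0.03 (SE 0.04, adjusted p = 0.59 by limma). The bright shared probeset thus did not pass the test that both probesets of RPL22 alone passed. Which of them follows the RPL22 mRNA was not tested.

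RPL26, a large subunit protein that also binds the p53 mRNA, was at 8.60 to 9.19 in healthy dogs (median 8.89). It was at 8.92 to 10.43 in naïve (median 9.86) and 8.62 to 10.28 in relapsed DLBCL (median 10.00). The groups overlapped through a few samples, with DLBCL sample 18 lowest among the relapsed and sample 20 among the naïve ones. The difference was 0.86 (SE 0.18, adjusted p = 3.8e-04 by limma). The highest healthy dog was exceeded by 19 of 22 DLBCL dogs. As with RPL22, a probeset shared with 1 other locus lay at 14.48 and differed by −0.01 (SE 0.04, adjusted p = 0.89).

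RPS10, a small subunit protein mutated in Diamond-Blackfan anaemia, had the lowest adjusted p of the members. It was at 10.96 to 11.42 in healthy dogs (median 11.05), 11.20 to 12.32 in naïve (median 11.70) and 11.35 to 11.73 in relapsed DLBCL (median 11.51). Only DLBCL samples 21 and 3 fell within the healthy range, and the highest value, 12.32, was that of DLBCL sample 5. The difference was 0.55 (SE 0.09, adjusted p = 4.5e-05 by limma). The second RPS10 probeset differed by 0.60 (SE 0.11, adjusted p = 1.1e-04), and a probeset shared with 2 other loci, at 14.56, by 0.10 (SE 0.04, adjusted p = 0.070).

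In all, 5 members under 14 (RPL17, RPL22, RPL26, RPS10 and RPS4X) had such a shared probeset at 14 or more. For these genes the probeset taken here was not the brightest one that the annotation ties to them.

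Of the 7 paralogs, 3 rose, each by less than 0.5. RPL7L1, a pre-ribosomal factor related to RPL7, was at 8.87 to 9.94 in healthy dogs (median 9.34), 9.01 to 10.39 in naïve and 9.47 to 10.17 in relapsed DLBCL (median 9.73 and 10.01). Only 8 of 22 DLBCL dogs exceeded every healthy dog, and the difference was 0.41 (SE 0.15, adjusted p = 0.041 by limma). RPL22L1, which can replace RPL22 in the ribosome, was at 11.70 to 11.98 in healthy, 11.47 to 12.62 in naïve and 11.55 to 12.54 in relapsed nodes. It rose by 0.37 (SE 0.14, adjusted p = 0.035 by limma) with 18 of 22 DLBCL dogs above and 3 under all healthy ones. The RPL7L1 call was lost without healthy dog 1, 2, 4 or 6 in turn, and that of RPL22L1 without healthy dog 1, 2, 3 or 7.

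RPS27L, a paralog of RPS27 induced by p53, was at 13.64 to 13.79 in healthy dogs (median 13.70). It was at 13.69 to 14.06 in naïve and 13.78 to 13.92 in relapsed DLBCL (median 13.85 and 13.86). The difference was 0.15 (SE 0.04, adjusted p = 0.0051 by limma). On its second probeset, at a mean of 13.26, all 22 DLBCL dogs were above all healthy dogs, by 0.31 on average (SE 0.06, adjusted p = 7.0e-05). RPL10L (difference 0.21, adjusted p = 0.066), RPL26L1 (0.16, adjusted p = 0.64), RPL3L (0.17, adjusted p = 0.32) and RPL36AL (−0.09, adjusted p = 0.14) did not pass. RPL26L1 had a wide spread in DLBCL, 10.58 to 12.87, against 10.89 to 11.65 in healthy dogs.

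Across the 22 DLBCL dogs RPL22 and RPL22L1 had r = −0.07 and rho = 0.05, given as a description. For RPL10 and RPL10L r was 0.63, and for RPS27 and RPS27L −0.40. For RPL26 and RPL26L1 it was 0.13, and for RPL7 and RPL7L1 −0.0014.

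The other called members changed by little. RPS19BP1 was at 10.74 to 10.90 in healthy dogs (median 10.84), 10.38 to 11.62 in naïve and 10.29 to 11.64 in relapsed DLBCL, and rose by 0.40 (SE 0.13, adjusted p = 0.021 by limma). Its lowest samples, under the healthy range, were DLBCL samples 5 and 18. RPL7A, at 13.51 to 13.94 in healthy and 13.56 to 14.21 in naïve nodes, rose by 0.21 (SE 0.08, adjusted p = 0.040). RPL37A rose by 0.24 (SE 0.08, adjusted p = 0.022), close to background, as given above. A probeset listed for RPL37A and 1 other locus, at 7.09 in DLBCL and 6.80 in healthy nodes and so above the tag controls, was higher by 0.29 (SE 0.08, adjusted p = 0.0059). The call of RPL7A was lost without healthy dog 1, 2, 3 or 4 in turn, and that of RPL37A without healthy dog 2, 3 or 7.

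RPS12, RPL4 and RPS26 were the bright members that passed. RPS12 was at 14.66 to 14.78 in healthy dogs (median 14.70), 14.65 to 14.96 in naïve and 14.77 to 14.92 in relapsed DLBCL. Its difference was 0.15 (SE 0.04, adjusted p = 0.0042 by limma), and 20 of 22 DLBCL dogs were above all healthy ones. DLBCL sample 5 was the lowest sample of all. RPL4 was 14.47 to 14.62 in healthy, 14.60 to 14.74 in naïve and 14.61 to 14.73 in relapsed nodes. Its groups barely touched, for a difference of 0.12 (SE 0.03, adjusted p = 0.0066). RPS26 differed by 0.10 (SE 0.03, adjusted p = 0.014). A prior variance that depends on the mean level, an alternative added after the data were seen, called 13 members, the added one being RPL15 (0.11, adjusted p = 0.048).

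Of the genes mutated in lymphoid tumours, RPL22 alone passed. RPL5 was at 14.61 to 14.68 in healthy dogs and 14.52 to 14.75 in naïve DLBCL (difference 0.01, adjusted p = 0.88 by limma). RPL10 differed by 0.03 (adjusted p = 0.49) and RPS15 by 0.10 (adjusted p = 0.17). Of 13 measured genes of Diamond-Blackfan anaemia, a congenital failure of red cell production, 3 rose (RPL26, RPS10 and RPS26) and 0 fell, or 23.1% and 0%, near the 19% of all probesets that rose.

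**Figure D2:**
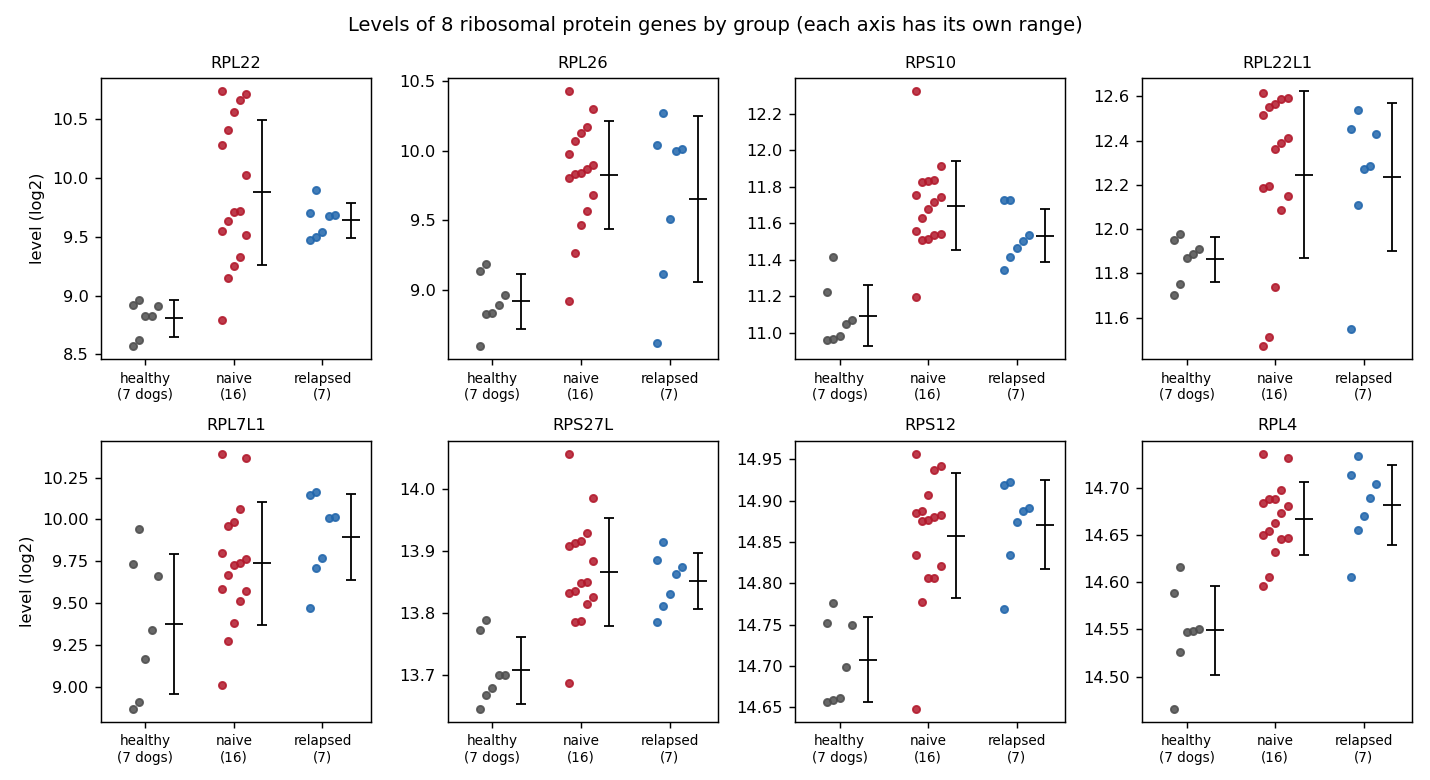
Log2 levels of 8 ribosomal protein genes in healthy dogs (n = 7), naïve DLBCL (n = 16) and relapsed DLBCL (n = 7), a point per dog or sample, with the mean and SD as a bar to the right. Each panel has its own y range. Relapsed samples lie within the range of naïve ones except for the lowest of RPL26.

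The 61 other probesets of the members, which lie under the brightest one of their gene, are given apart from the members. Of them 20 were higher and 2 lower in DLBCL, 32.8% and 3.28%, against the same 19% and 13.6% of all probesets. They were not independent of the members, since they share genes, and 7 of the 20 had a mean under 6. In 11 genes the brightest probeset did not pass and another was higher.

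RPS20, a protein of the small subunit head, had the largest difference of the 117 probesets. Its dimmer probeset was at 8.92 to 9.71 in healthy dogs (median 9.53), 9.83 to 11.68 in naïve (median 10.78) and 10.27 to 11.42 in relapsed DLBCL (median 10.67). All 22 DLBCL dogs were above all healthy dogs. The difference was 1.38 (SE 0.19, adjusted p = 4.0e-06 by limma), or 2.60-fold, whereas the brightest RPS20 probeset had a DLBCL mean of 14.76 and did not pass (adjusted p = 0.97).

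RPL34, of the large subunit, did likewise. A dimmer probeset was at 7.76 to 8.05 in healthy, 8.17 to 9.46 in naïve and 8.40 to 9.06 in relapsed nodes. The groups did not overlap, and the difference was 0.80 (SE 0.13, adjusted p = 2.8e-05 by limma). The brightest probeset had an adjusted p of 0.69.

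Dimmer probesets of RPL35 (0.86, adjusted p = 0.0013), RPL10A (0.80, adjusted p = 0.0094) and RPS14 (0.51, adjusted p = 0.0021) were also higher by limma, with the brightest ones not passing. Those of RPS27 (−0.60, adjusted p = 2.2e-04) and RPL36AL (−0.72, adjusted p = 0.031) were lower, and 21 of 22 DLBCL dogs were under all healthy dogs for RPS27. Which transcript each of these dimmer probesets reads was not tested.

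**Figure D3:**
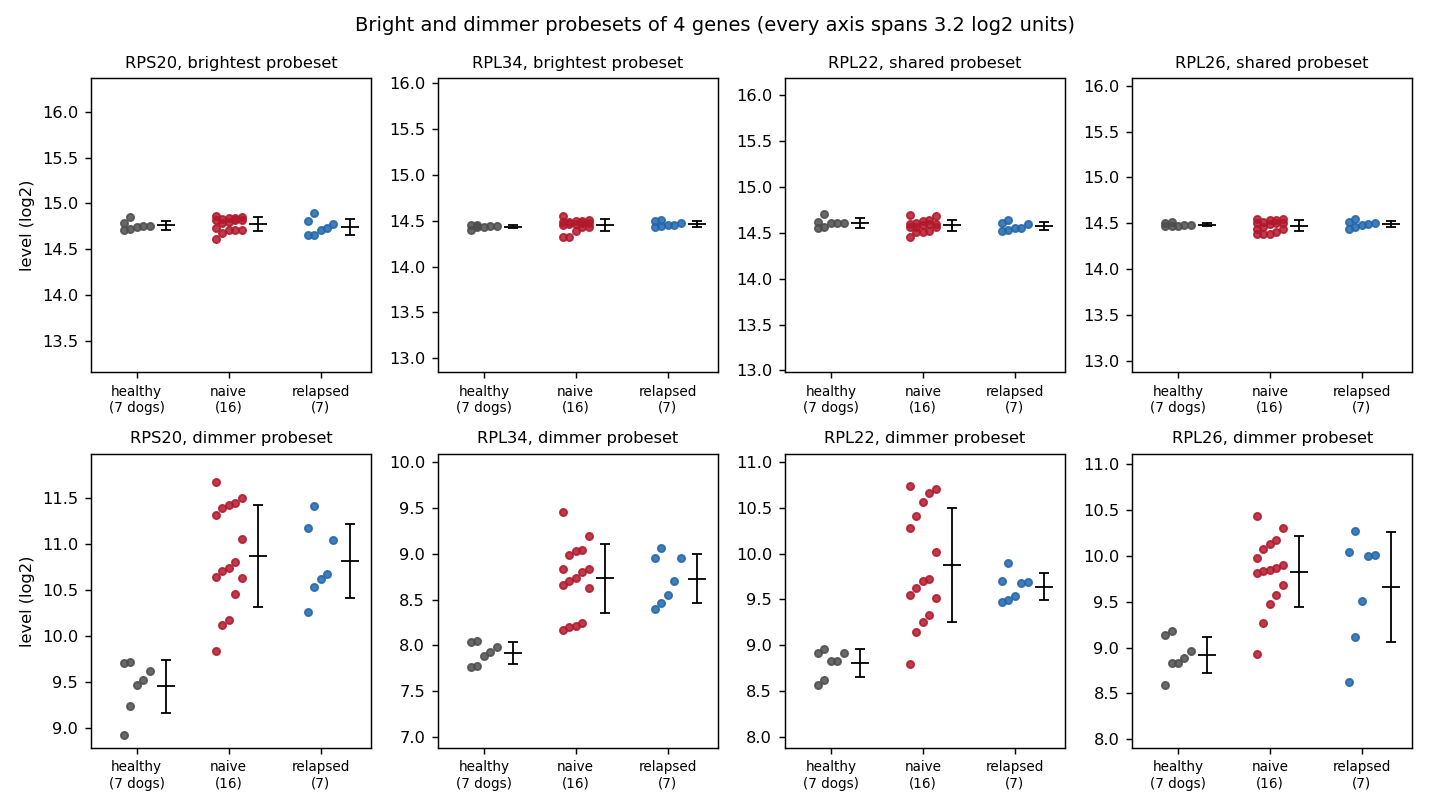
Log2 levels of 2 probesets for each of 4 genes by group, the upper row with the bright probeset (for RPL22 and RPL26 a probeset shared with another locus) and the lower row with a dimmer one. Every y axis spans the same number of log2 units, points are dogs or samples (7 healthy, 16 naïve, 7 relapsed) and bars are mean and SD. The groups lie at one level in each upper panel, and the DLBCL means lie higher in each lower one.

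Each tumour group was also set against the same 7 healthy dogs. In naïve DLBCL 12 members were higher and 0 lower, where 19% of all probesets were higher and 13.5% lower. RPL22 differed by 1.07 (SE 0.23, adjusted p = 9.2e-04), or 2.10-fold, RPL26 by 0.91 (SE 0.15, adjusted p = 6.7e-05) and RPS10 by 0.60 (SE 0.10, adjusted p = 8.7e-05), all by limma. RPL10L passed here (0.30, adjusted p = 0.0028) and RPL7L1 did not (0.36, adjusted p = 0.10).

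In relapsed DLBCL 5 members were higher and 0 lower, where 11% of all probesets were higher and 9.82% lower. RPL22 was above all healthy dogs in 7 of 7 samples, with a difference of 0.83 (SE 0.09, adjusted p = 2.5e-05 by limma). So was RPL8, which differed by 0.11 and did not pass (adjusted p = 0.15 by limma). The share of all probesets that separated these groups was not computed. RPS10 differed by 0.44 (SE 0.09, adjusted p = 0.0039), RPL26 by 0.73 (SE 0.22, adjusted p = 0.030), RPL7L1 by 0.52 (SE 0.18, adjusted p = 0.047) and RPS12 by 0.16 (SE 0.05, adjusted p = 0.048). Leaving out 1 healthy dog left 2 to 4 of these calls. It left 3 without healthy dog 1, 2, 3 or 4 and 2 without healthy dog 6.

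Relapsed and naïve DLBCL were compared directly on the 23 arrays, 1 dog having given a sample to each group, and 0 members were called in either direction by limma. Of all probesets 0% were called higher and 0% lower, with a lowest adjusted p of 0.86. Without adjustment, 1 of 56 members passed p under 0.05, as did 4.78% of all probesets. It was RPL10L, which was lower by 0.26 in relapsed samples (95% interval −0.45 to −0.07, unadjusted p = 0.010 and adjusted p = 0.99 by limma). RPL10L was at 5.54 to 6.18 in naïve samples (median 5.76) and 5.29 to 6.07 in relapsed ones (median 5.52). These values lay under the array medians (6.85 to 6.97) and above the tag controls (highest mean 4.56).

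The intervals show what these 23 arrays could not resolve. Relapsed minus naïve was −0.24 for RPL22 (95% interval −0.71 to 0.24), −0.17 for RPL26 (−0.59 to 0.24), −0.16 for RPS10 (−0.37 to 0.05) and 0.01 for RPS12 (−0.08 to 0.11). For the 41 members at 14 or more all intervals lay between −0.22 and 0.19, near the ceiling of the array. The widest interval of the members named here was that of RPS4X, −0.85 to 0.54.

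RPS4X, an X-linked small subunit gene, varied more than any other member (SD 0.78 over 22 DLBCL dogs). It was at 8.56 to 11.15 in naïve (median 10.73), 8.51 to 11.10 in relapsed (median 10.83) and 9.53 to 10.83 in healthy nodes (median 9.96). The lowest samples were DLBCL sample 10 of the naïve and 18 of the relapsed group. The highest healthy value was that of healthy dog 1. DLBCL and healthy means differed by 0.38 (SE 0.30, adjusted p = 0.35 by limma), which did not pass. A probeset listed for RPS4X and 3 other loci was at 14.65 to 14.87 in naïve samples and had an SD of 0.053 over the DLBCL dogs.

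Across the tumours the bright members were correlated on average within their narrow range, with a wide spread between pairs. The mean of the 41 members at 14 or more was 14.55 to 14.72 in naïve (median 14.70), 14.64 to 14.73 in relapsed (median 14.67) and 14.63 to 14.67 in healthy nodes (median 14.66). DLBCL sample 5 was lowest, followed by sample 21. Over 22 DLBCL dogs the mean pairwise correlation of these members was 0.36 (5th to 95th percentile of pairs −0.14 to 0.75). It was 0.22 (−0.27 to 0.66) without samples 5 and 21. Over the 7 healthy dogs it was 0.10. For the other 63 named genes at 14 or more it was 0.01 over the 22 DLBCL dogs, and for all named genes 0.01. Neither of these was computed without samples 5 and 21. The correlations are descriptions, and the points share the normalization of each array. The 15 members under 14 had a mean pairwise correlation of 0.05 over the DLBCL dogs. The mean of these 15 was 10.05 to 10.45 in naïve, 9.89 to 10.42 in relapsed and 9.92 to 10.03 in healthy nodes, with DLBCL sample 18 lowest.

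RNA integrity was examined within each group, because it differed between tumours and healthy nodes. In the 16 naïve samples (RIN 8.9 to 10) 0 members had a slope on RIN at an adjusted p under 0.05, where 0.0163% of all probesets rose and 0.332% fell with RIN. In the 7 relapsed samples (9.1 to 9.9) and in the 7 healthy dogs (5.8 to 9.15), 0 members and 0% of all probesets had one. Without adjustment 0 of 56 members passed p under 0.05 in the naïve samples (7.76% of all probesets), 0 in the relapsed samples (5.40%) and 2 in the healthy dogs (12.8%). The mean of the 41 bright members had r = −0.62 and rho = −0.54 with RIN over the 7 healthy dogs, and r = −0.0037 without the 2 dogs farthest from the median RIN. Over the 7 relapsed samples r was 0.63 and rho 0.69, with r = 0.47 without the 2 farthest. Over the 16 naïve samples r was −0.06 and rho 0.11, with r = 0.04 without the 2 farthest. These correlations are descriptions, and the points share the normalization of the arrays.

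None of the slopes that follow passed after adjustment. RPS4X had a slope of 0.28 per RIN unit in healthy dogs (SE 0.09, unadjusted p = 0.016 and adjusted p = 0.26 by limma), and RPL7L1 one of −0.25 (SE 0.11, adjusted p = 0.38). Both had healthy dog 1, of the highest RIN, at one end of the healthy range. RPL22 had a slope of −0.11 in healthy dogs (SE 0.05, adjusted p = 0.40) and 0.43 in naïve samples (SE 0.54, adjusted p = 0.94). RPL26L1 had −0.85 in naïve samples (SE 0.46, adjusted p = 0.72). In the relapsed samples the steepest were RPS4X, at 1.53 (SE 0.95), and RPS19BP1, at 0.89 (SE 0.39, both adjusted p = 0.88). DLBCL sample 18 had the lowest RIN and the lowest level of each. Among the relapsed samples it also had the lowest mean of proliferation genes (9.49). Its means of lymph node stroma markers (12.09) and macrophage markers (11.08) were the highest of them. Their part in its levels was not tested.

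**Figure D4:**
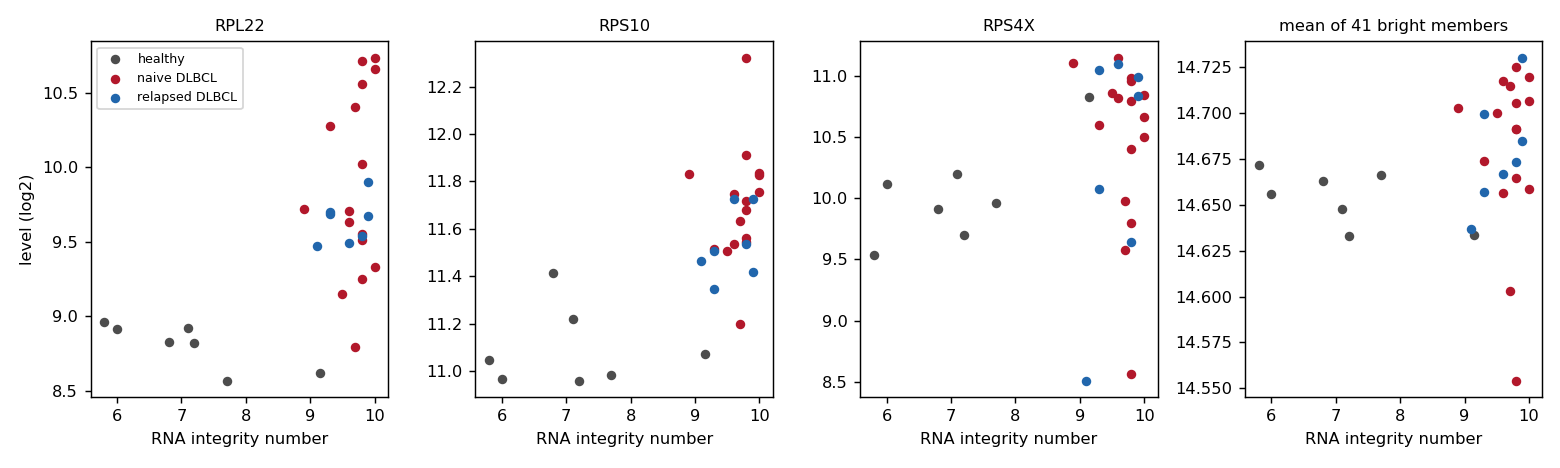
Log2 level against RNA integrity number for RPL22, RPS10, RPS4X and the mean of the 41 members at 14 or more, a point per healthy dog (n = 7), naïve (n = 16) or relapsed sample (n = 7). Healthy dog 1, at a mean RIN of 9.15, lies among the tumours in RIN and within the range of the other healthy dogs in RPL22 and RPS10, and is the highest healthy dog in RPS4X. Each panel has its own y range.

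With RIN as a covariate 0 of 56 members were called between DLBCL and healthy nodes, and of all probesets 0.579% were higher and 1.16% lower. RPL22 differed by 1.05 at equal RIN (SE 0.42, adjusted p = 0.21), RPL7L1 by 0.78 (SE 0.32, adjusted p = 0.23), RPL22L1 by 0.67 (SE 0.29, adjusted p = 0.26), RPS10 by 0.45 (SE 0.21, adjusted p = 0.28), RPL26 by 0.61 (SE 0.38, adjusted p = 0.48) and RPS19BP1 by 0.17 (SE 0.28, adjusted p = 0.84). The SE of RPL22 more than doubled. Healthy dogs 2 to 7 had a RIN of 5.8 to 7.7, under every tumour (8.9 to 10). RIN and disease can therefore hardly be told apart in these samples, and a difference at equal RIN rests largely on healthy dog 1. Healthy dog 1, whose RIN was in the range of the tumours, had an RPL22 level of 8.62, an RPS10 level of 11.07 and an RPL26 level of 8.83. Of 22 DLBCL dogs, 22 were above it for RPL22, 22 for RPS10 and 21 for RPL26. This is 1 dog, and its cell markers stood apart from those of the other healthy dogs. The mean of its macrophage markers was 12.30, with the others at 9.90 to 11.11, that of its T-cell markers 9.92, with the others at 10.60 to 10.97, and that of its proliferation genes 8.36, with the others at 8.98 to 10.07. Their part in its ribosomal protein levels was not tested.

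Genes that build, resemble or regulate the ribosome were read from lists beside the ribosomal proteins. Of 31 measured genes of ribosome biogenesis, which make and modify ribosomal RNA and assemble subunits, 28 rose and 0 fell in DLBCL, with a median difference of 0.56. DKC1, the pseudouridine synthase of the box H/ACA particles, rose by 1.06 (SE 0.15, adjusted p = 2.7e-06 by limma). NPM1, a nucleolar chaperone, rose by 0.88 (SE 0.17, adjusted p = 1.9e-04), and FBL, the rRNA methyltransferase, by 0.68 (SE 0.12). Of 73 genes of mitochondrial ribosomal proteins 46 rose and 1 fell (MRPS26), with a median of 0.33. Their mean level was 11.24, and that of the biogenesis genes 11.25, below the range of the bright members.

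Translation factors whose mRNAs also carry a TOP motif had a mean level of 13.95. Of 16, 9 rose and 0 fell (median 0.14), the largest being EEF2, the elongation factor of translocation, with 0.32 (SE 0.09, adjusted p = 0.0077 by limma). EEF1A1, at 14.82 in DLBCL, differed by 0.04 (adjusted p = 0.37). Of the 5 genes of the stalk, FAU and RACK1, 2 rose, RPLP0 by 0.20 (SE 0.06, adjusted p = 0.0089) and RACK1 by 0.10 (SE 0.04, adjusted p = 0.042). FAU, which encodes RPS30 as a fusion, differed by −0.10 (adjusted p = 0.058).

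Of 15 genes of the mTOR pathway that controls TOP mRNAs, 8 rose and 1 fell. The one that fell was TSC2, an inhibitor of mTORC1, by 0.44 (SE 0.10, adjusted p = 0.0013). LARP1, which binds TOP motifs, rose by 0.33 (SE 0.07, adjusted p = 2.7e-04), and EIF4EBP1, an mTOR target, by 0.47 (SE 0.16, adjusted p = 0.026). For comparison 3013 of 15115 named genes rose and 2245 fell. In the same samples 8 of 8 proliferation genes rose (median 1.35) and 12 of 14 T-cell genes fell (median −2.53), and their part in these differences was not tested.

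**Figure D5:**
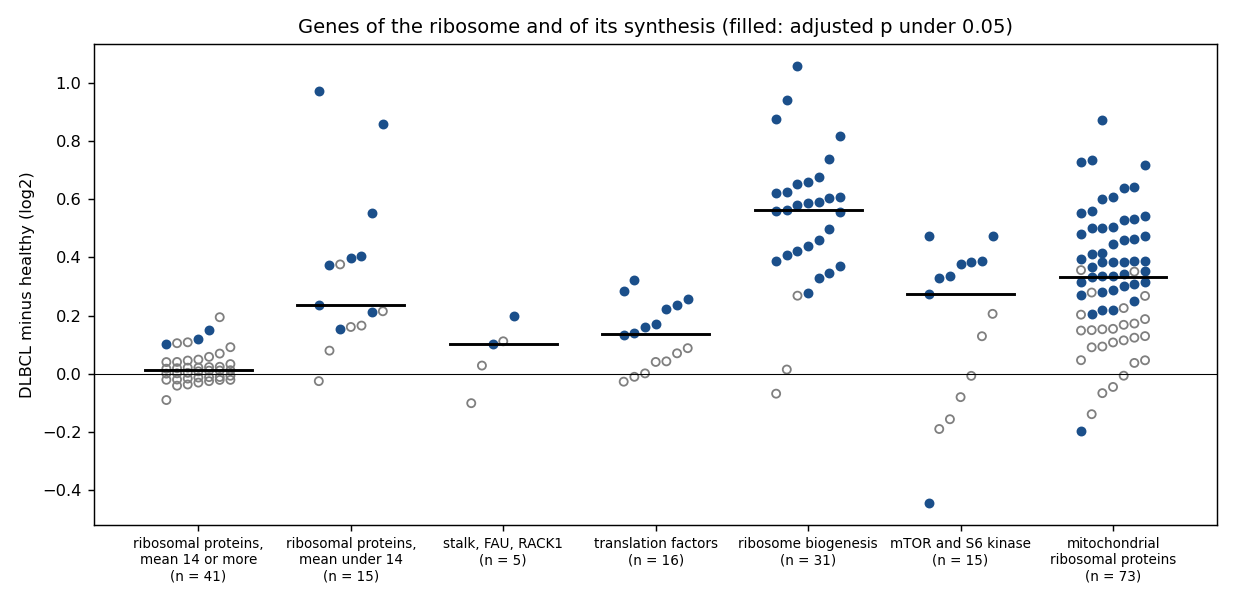
Difference of DLBCL and healthy means (log2, 22 and 7 dogs) for each gene of 7 groups, filled for an adjusted p below 0.05, and a line at the median. The ribosomal proteins at 14 or more lie around 0.01, those under 14 around 0.24, the biogenesis genes around 0.56 and the mitochondrial ribosomal proteins around 0.33.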

How the data were processed

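RNA of 33 canine lymph node samples was hybridised to Affymetrix Canine Genome 2.0 arrays. The deposited log2 values, 1 per probeset and array, were made by the authors with RMA (Affymetrix Expression Console, no version named in the labels). RMA equalises the distribution of the arrays, which hides a change in the total amount of RNA. The number of arrays limits the precision, and 0 columns were left unused. RNA was extracted in balanced batches whose samples the labels do not name, so no batch was tested.

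Groups came from the sample labels, and arrays with one case number were averaged. Probesets were compared with limma 3.58.1 (R 4.3.3), with Benjamini-Hochberg adjustment over 43035 probesets, and RIN slopes were fitted within groups. Probesets were named through GEO's annotation of the platform, and 54 of 56 members had the same symbol in a RefSeq table. Probesets with several symbols were not used for members. Summaries used Python 3.11.15 and pandas 2.3.3. The procedures were tested on simulated data.

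Members, lists and tests were chosen with earlier results of these data known. Genes named are the 8 largest changes each way, the listed 5S particle, lymphoid tumour, paralog and binding protein genes, the 4 steepest RIN slopes each way and the 5 brightest and dimmest members. RPL8, RPL15, RPL34, RPL35, RPL10A, RPS14, RPS20, and called members past the 8 largest, were chosen after their values were seen, as were the list examples. Alternatives were other handling of arrays of a dog, a block for sample numbers, RIN as a covariate, a filter on low means, other normalizations, ANOVA, the mean of a gene's probesets and leaving out samples.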

Additional observations from a re-analysis of the deposited data

Results flagged for a closer look

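In 4 cases 1 sample lay far from the rest of its group, out of 56 groups of 7 examined (28 named genes, healthy dogs and relapsed samples). Chance gives such a gap in about 1 of 20 groups. RPL10 was 14.57 in healthy dog 4, where the other healthy dogs were at 14.63 to 14.65, and 14.55 in DLBCL sample 9, where the other relapsed samples were at 14.64 to 14.67. RPL10L was 6.07 in DLBCL sample 12, with the other relapsed samples at 5.29 to 5.61. RPL3L was 7.37 in DLBCL sample 24, with the others at 6.14 to 6.43.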

How the results depend on the processing

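In DLBCL against healthy nodes 12 members were higher, 0 lower and the median difference was 0.028. The counts were 7 with the sample number as a replicate block, 20 higher and 1 lower by one-way ANOVA of 33 arrays, 1 lower (RPL24) by ANOVA on dogs, which was added later, 0 higher with RIN as a covariate, and 19 higher and 2 lower with the mean of a gene's probesets. Replicate numbers are names of samples only and do not pair dogs, so the block is no sign of a weaker effect. The median was 0.046 with 33 arrays by either test, 0.049 after median centring and 0.092 with the mean of probesets. In naïve DLBCL (12 higher, 0 lower) RIN as a covariate gave 0, and the mean of probesets 22 higher and 2 lower. In relapsed DLBCL (5 higher, 0 lower) they gave 1, and 8 higher and 2 lower. By ANOVA on dogs, 13 members rose in DLBCL and 1 fell, while 19.1% of the whole array rose and 13.2% fell. For the replicate block, the ANOVA of 33 arrays and the mean of probesets no such share is given. Their counts therefore cannot be set against the shares of the main tests. Leaving out 1 healthy dog gave 8 to 12 members higher in DLBCL, 9 to 11 in naïve and 2 to 4 in relapsed DLBCL. RPL7A, RPL22L1, RPL7L1 and RPL37A were the calls lost in DLBCL.

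With the mean of probesets the sign turned for RPL10A (0.39 in DLBCL, 0.38 in naïve, 0.44 in relapsed), RPS14 (0.20 in DLBCL and 0.20 in naïve), RPL24 (0.14 in naïve) and RPS27 (−0.29, −0.27 and −0.32). The construction lets dim probesets in. Other causes were not tested. Relapsed against naïve DLBCL and the RIN slopes stayed at 0 members in the alternatives run. The dog as a random block could not be fitted for relapsed against naïve DLBCL, where 1 dog has 2 arrays, and gave 12 higher in DLBCL against healthy (correlation 0.58). Bright members lay near the ceiling of the array and RPL37A near background.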
